A study of Homo sapiens with 12 samples.

Results

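The BMP pathway genes that lie upstream of the ID genes were examined across TC71 cells with and without an ID2 knockout. 10 genes were named for this group, namely the ligands BMP4 and BMP7, the receptors BMPR1A, BMPR1B and BMPR2, and SMAD1, SMAD5, SMAD9, SMAD4 and SMAD6. They were chosen as known pathway members and matched by Ensembl identifier to the rows of a table of 21569 genes. 8 of the 10 had a row there, all 8 passed the filter on low counts, and BMP4 and BMP7 were not analysed here. ID1, ID2, ID3 and ID4, which are known BMP targets, were set beside them.

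TC71 is a human Ewing sarcoma cell line, a tumour line driven by an EWSR1 fusion, and polyadenylated RNA was sequenced from 12 of its libraries. The 4 groups had 3 libraries each and were a rescue line made from ID2 knockout clone 2, ID2 knockout clone 2, ID2 knockout clone 1, and wild-type TC71. All were cultured in DMEM with 10% fetal bovine serum, and no added BMP ligand or inhibitor is named. Each knockout line was 1 clone, the rescue line carried the knockout of clone 2, and neither the form of the ID2 deletion nor the rescue construct is given in the labels. Whether the 3 libraries of a group were grown as separate cultures is not stated, so each p-value reflects how much these libraries vary, possibly for technical reasons alone.

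BMPs are secreted ligands that bring together type I receptors such as BMPR1A and BMPR1B and type II receptors such as BMPR2. The type II receptor phosphorylates the type I receptor, which then phosphorylates the receptor SMADs SMAD1, SMAD5 and SMAD9, and these enter the nucleus with the shared partner SMAD4. ID1, ID2 and ID3 are among the best known genes switched on by these complexes, while SMAD6 is switched on as well and then holds the pathway back. ID proteins bind basic helix-loop-helix E proteins and keep them from DNA. RNA levels show neither receptor activity nor SMAD phosphorylation.

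Counts per library summed to between 19420408 and 29748084. Levels below are given as CPM, read counts brought to the same library size with TMM factors, and changes are log2 fold changes from edgeR's quasi-likelihood test over 17084 genes, with Benjamini-Hochberg adjustment and a threshold of 0.05. The 9 Ewing sarcoma markers checked, CD99 and NKX2-2 among them, were all present and summed to 2309 to 2321 CPM in libraries labelled rescue, 2641 to 2790 in clone 2, 2828 to 2921 in clone 1 and 2705 to 2747 in wild-type. CCND1, a cyclin, was the largest part of each sum, with means of 1011, 1108, 1545 and 1355 CPM in the same order. NKX2-2 averaged 16.5, 21.4, 14.0 and 11.1 CPM. The sums therefore do not show how single markers moved. NR0B1 fell by 0.88 on the log2 scale in libraries labelled rescue relative to clone 2 (SE 0.044, edgeR adjusted p = 7.20e-20). Markers of blood, endothelium, epithelium, liver and fibroblasts, of which 9 of 11 had a row and none of the 9 was at 0 in any group, summed to 104 to 119 CPM in libraries labelled rescue, 221 to 253 in clone 2, 1032 to 1112 in clone 1 and 223 to 226 in wild-type. The clone 1 sum was mostly KRT8 and KRT18, keratins of simple epithelia, at mean levels of 504.4 and 378.0 CPM, and the part of these genes in the clone 1 results was not tested. All 6 markers of other cells that were tested fell in libraries labelled rescue relative to clone 2, with a median of -1.25, and 5 of 6 fell relative to wild-type, with a median of -0.95. Over all genes 19.9% and 29.9% fell in these comparisons. The fall was not limited to markers of other cells. Of the 9 Ewing sarcoma markers, 0 rose and 7 fell relative to clone 2, with a median of -0.27. Relative to wild-type 1 rose and 5 fell, with a median of -0.14. PDGFRB and DCN, genes of fibroblasts and other mesenchymal cells, averaged 24.7 and 3.83 CPM in libraries labelled rescue and 66.3 and 7.68 in clone 2. These 2 genes averaged 159.9 and 15.4 CPM in clone 1 and 96.4 and 11.4 in wild-type. In clone 1 all 6 tested markers of other cells rose relative to wild-type, with a median of 1.83, where 30.8% of all genes rose. Of the 9 Ewing sarcoma markers 6 rose and 2 fell there, with a median of 0.18. The part of PDGFRB and DCN in the rescue and clone 1 results was not tested either. In bulk RNA, fewer cells of a type and less RNA per cell cannot be told apart.

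ID2, the targeted gene, had 42.0, 41.6 and 40.9 CPM in the libraries labelled rescue, 47.8, 50.8 and 54.1 CPM in clone 2, 17.9, 17.4 and 18.9 CPM in clone 1, and 77.6, 78.6 and 77.4 CPM in wild-type. None of the groups overlapped. ID2 RNA was lowest in clone 1, and the libraries labelled rescue had less ID2 RNA than clone 2, with a log2 fold change of -0.29 (SE 0.047, edgeR adjusted p = 3.52e-06). The rescue label was therefore not matched by a return of ID2 RNA counted at the gene, and directions drawn from these libraries below rest on the label. Whether RNA from the rescue construct would be counted at the gene is not known, so these values do not show its level.

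Between 5 and 7 of the 8 BMP pathway genes passed the test in each comparison. In clone 2 against wild-type, 2 rose and 5 fell, where 62.1% of all genes tested were called, 31.5% higher and 30.6% lower. In clone 1 against wild-type, 3 rose and 4 fell, against a background of 61.5% of all genes, 30.8% higher and 30.7% lower. SMAD1, SMAD9, SMAD4 and SMAD6 fell in both clones, and BMPR1A and SMAD5 rose in both. The SMAD5 call in clone 2 lay close to the threshold and was lost in 13 of 20 alternative fits. The median absolute log2 fold change of the 8 genes was 0.33 in clone 2, against 0.31 over all genes, and 0.34 in clone 1, against 0.29 over all genes. It was 0.33 in libraries labelled rescue against clone 2, where all genes had 0.17, and 0.16 in libraries labelled rescue against wild-type, where all genes had 0.28. Their median signed change was -0.33 in clone 2 and -0.24 in clone 1, against 0.01 over all genes in each.

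In the libraries labelled rescue against clone 2, 3 of the 8 genes rose and 2 fell, where 39.2% of all genes tested were called, 19.3% higher and 19.9% lower. The 3 that rose were SMAD1, SMAD9 and SMAD6, which had fallen in clone 2 against wild-type; both comparisons use the same clone 2 libraries, so a low clone 2 value enters each with opposite sign. In the libraries labelled rescue against wild-type, 1 gene rose and 4 fell, beside 58.4% of all genes, 28.5% higher and 29.9% lower. In clone 2 against clone 1, the test of whether the clones differed, 1 rose and 4 fell, beside 62.2% of all genes, 30.3% higher and 31.9% lower. The rescue and clone 2 comparisons with wild-type, and those of both clones, share their wild-type libraries, and clone 2 is shared by its comparisons with the rescue line, clone 1 and wild-type. With only 8 genes, these counts are a description beside those shares.

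**Figure D1:**
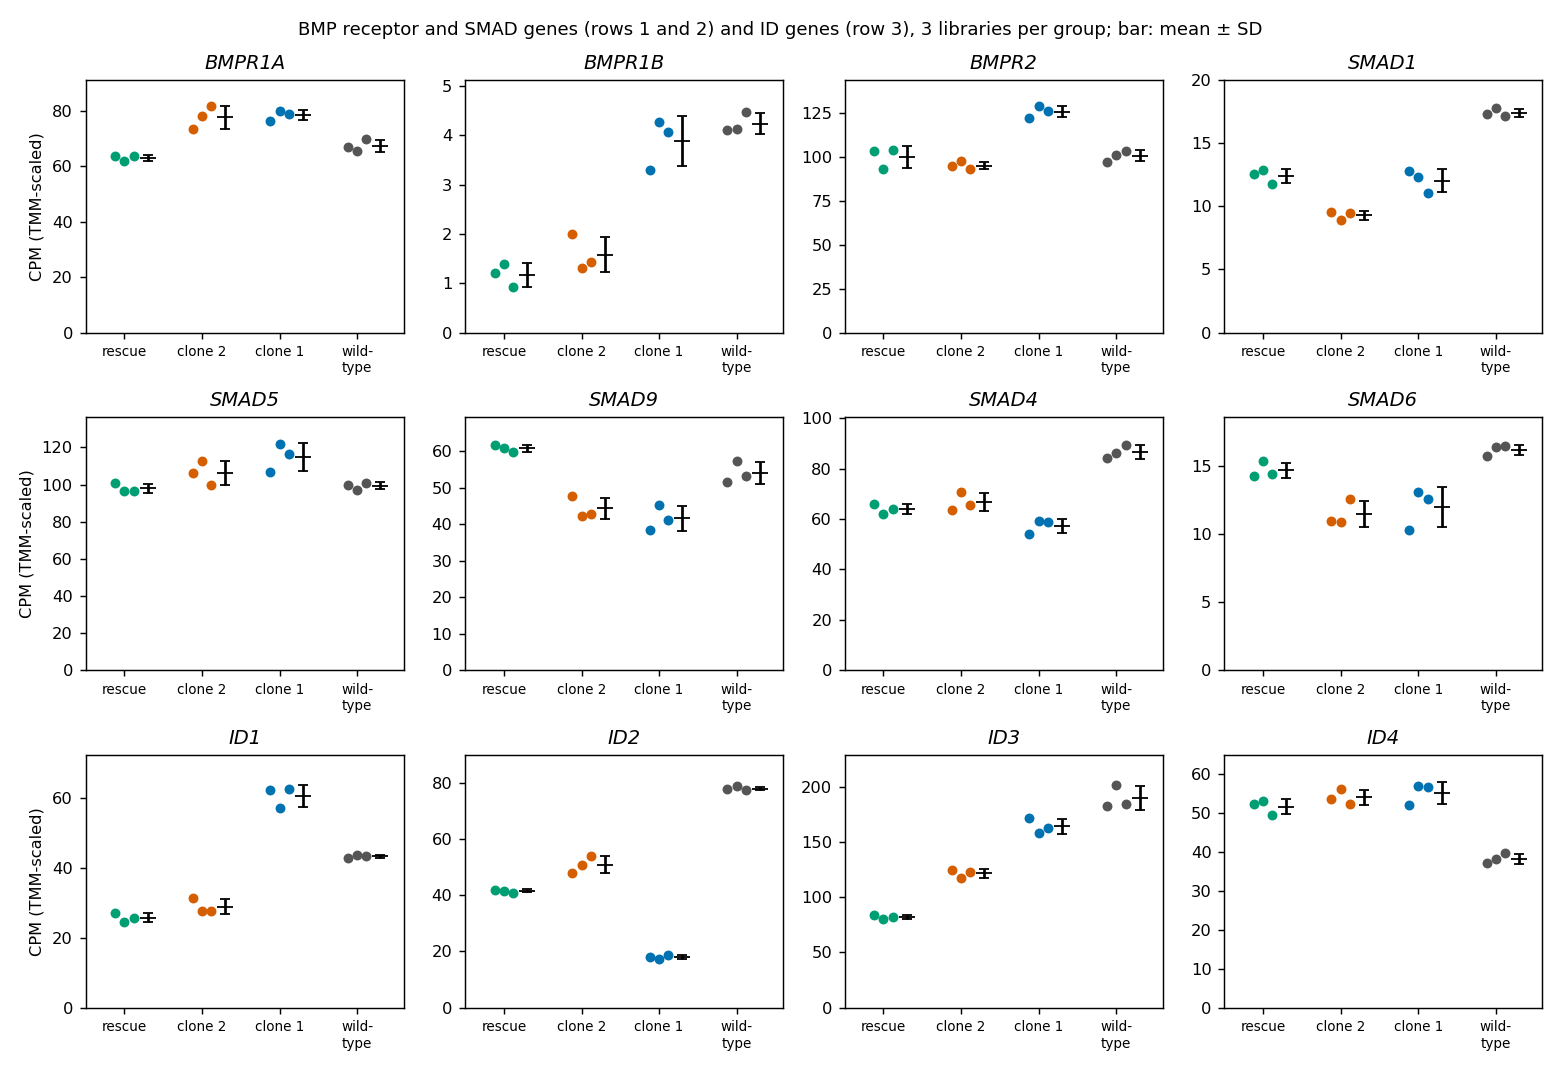
CPM of the 8 BMP receptor and SMAD genes and the 4 ID genes in each library (points), with the mean and SD of each group (bars), in 3 libraries each of rescue, clone 2, clone 1 and wild-type. Every SMAD4 library of the rescue line and both clones lies below all 3 wild-type libraries, and every BMPR1B library of rescue and clone 2 lies below those of clone 1 and wild-type.

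BMPR1A, a widely expressed type I receptor on chromosome 10 (hg38 chr10:86756601-86932838, plus strand), had 63.7, 61.8 and 63.9 CPM in libraries labelled rescue and 73.5, 78.1 and 81.8 CPM in clone 2. It had 76.5, 80.0 and 79.0 CPM in clone 1 and 66.9, 65.5 and 69.8 CPM in wild-type. Both clones lay above every wild-type library, and the rescue libraries lay below every library of clone 2. Relative to wild-type, BMPR1A rose by 0.20 on the log2 scale in clone 2 (SE 0.042, edgeR adjusted p = 6.61e-05) and by 0.22 in clone 1 (SE 0.042, edgeR adjusted p = 1.79e-05). In libraries labelled rescue it fell by 0.30 on the log2 scale relative to clone 2 (SE 0.042, edgeR adjusted p = 2.07e-07). Relative to wild-type the rescue change was -0.10 (SE 0.042), with an edgeR adjusted p of 0.0459. That call was lost without wild-type replicate 1 or 3, clone 1 replicate 2 or any 1 rescue replicate, where adjusted p ran from 0.0598 to 0.208 and the change from -0.11 to -0.07. It was also lost under upper quartile scaling, at -0.05, with a filter of 1 CPM in 3 libraries, with DESeq2 and with only the groups compared.

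BMPR1B, the type I receptor known for its role in cartilage and limb skeleton, lies on chromosome 4 (hg38 chr4:94757968-95158448, plus strand) and was the scarcest of the 8, with 24 to 130 counts per library. It had 1.21, 1.39 and 0.917 CPM in libraries labelled rescue and 1.99, 1.32 and 1.44 CPM in clone 2, against 3.30, 4.27 and 4.07 CPM in clone 1 and 4.11, 4.12 and 4.48 CPM in wild-type. The rescue and clone 2 libraries overlapped each other and stood below every library of clone 1 and wild-type, which also overlapped each other. BMPR1B averaged 1.17 ± 0.241 CPM in libraries labelled rescue, 1.58 ± 0.360 in clone 2, 3.88 ± 0.512 in clone 1 and 4.24 ± 0.211 in wild-type (SD, n = 3 each). The log2 fold change was -1.39 (SE 0.171, edgeR adjusted p = 3.31e-09) in clone 2 and -1.85 (SE 0.177, edgeR adjusted p = 6.66e-12) in the libraries labelled rescue, both against wild-type and the largest such changes among the 8 genes. The change in clone 1 was -0.12 (SE 0.142, edgeR adjusted p = 0.494). Clone 2 was lower than clone 1 by the test of that difference, at -1.27 (SE 0.174, edgeR adjusted p = 3.35e-08). The rescue libraries differed from clone 2 by -0.46 (SE 0.218, edgeR adjusted p = 0.0888), or by -0.22 (edgeR adjusted p = 0.550) without clone 2 replicate 1 and by -0.30 without rescue replicate 3.

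BMPR2, the type II receptor most specific for BMPs and the gene mutated in heritable pulmonary arterial hypertension, lies on chromosome 2 (hg38 chr2:202376936-202567751, plus strand). It had 103.4, 92.9 and 103.7 CPM in libraries labelled rescue, 94.6, 97.3 and 93.0 CPM in clone 2, 122.3, 128.7 and 126.0 CPM in clone 1, and 97.2, 100.7 and 103.4 CPM in wild-type. Clone 1 stood above every other library, and the other 3 groups overlapped. BMPR2 rose by 0.32 in clone 1 (SE 0.039, edgeR adjusted p = 2.76e-09), and clone 2 was lower than clone 1 by -0.41 (SE 0.040, edgeR adjusted p = 1.11e-11). In clone 2 against wild-type the change was -0.08 (SE 0.041, edgeR adjusted p = 0.0762). It passed the threshold, at -0.12 to -0.10, without wild-type replicate 1, clone 1 replicate 1 or 3, clone 2 replicate 2 or any 1 rescue replicate, and with no filter on low counts. The rescue change against clone 2 was 0.08 (SE 0.040, edgeR adjusted p = 0.141), which became 0.14 (edgeR adjusted p = 0.00604) without rescue replicate 2.

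Levels of different genes were compared per kilobase of exon, counted over all annotated exons of a gene together. That length can exceed that of the transcript present, so comparisons between genes are approximate. By this measure BMPR1A made up most of the RNA of the 4 BMP type I receptors. Its share of their summed CPM per kilobase was 59.3% ± 0.795 in libraries labelled rescue, 62.6% ± 2.17 in clone 2, 61.5% ± 1.46 in clone 1 and 55.3% ± 1.65 in wild-type (SD, n = 3 each). ACVR1, the type I receptor mutated in fibrodysplasia ossificans progressiva, took 38.5%, 35.0%, 32.6% and 38.2% of that sum in rescue, clone 2, clone 1 and wild-type. BMPR1B took 2.00% and 2.30% in rescue and clone 2, against 5.49% in clone 1 and 6.28% in wild-type. ACVRL1, the type I receptor of endothelium, stayed under 1 CPM in every group mean. Among type II receptors BMPR2 took 69.5% ± 1.35 in libraries labelled rescue, 67.9% ± 1.14 in clone 2, 68.3% ± 0.557 in clone 1 and 60.0% ± 1.38 in wild-type.

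ACVR2A and ACVR2B, the type II receptors that BMPs share with activins, made up the rest. ACVR2B averaged 31.2 CPM in libraries labelled rescue, 27.8 in clone 2, 35.7 in clone 1 and 46.0 in wild-type. Its change was -0.73 in clone 2 (SE 0.053, edgeR adjusted p = 2.46e-15) and -0.36 in clone 1 (SE 0.051, edgeR adjusted p = 5.97e-08). ACVR2A averaged 11.6 CPM in libraries labelled rescue, 13.6 in clone 2, 17.9 in clone 1 and 18.2 in wild-type, and fell by 0.65 on the log2 scale in the rescue libraries relative to wild-type (SE 0.073, edgeR adjusted p = 3.31e-10). Of these 3 further receptors tested, 0 rose and 2 fell in clone 2, and 0 rose and 2 fell in clone 1, with median changes of -0.43 in clone 2 and -0.17 in clone 1. Over all genes 30.6% fell in clone 2 and 30.7% in clone 1.

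**Figure D2:**
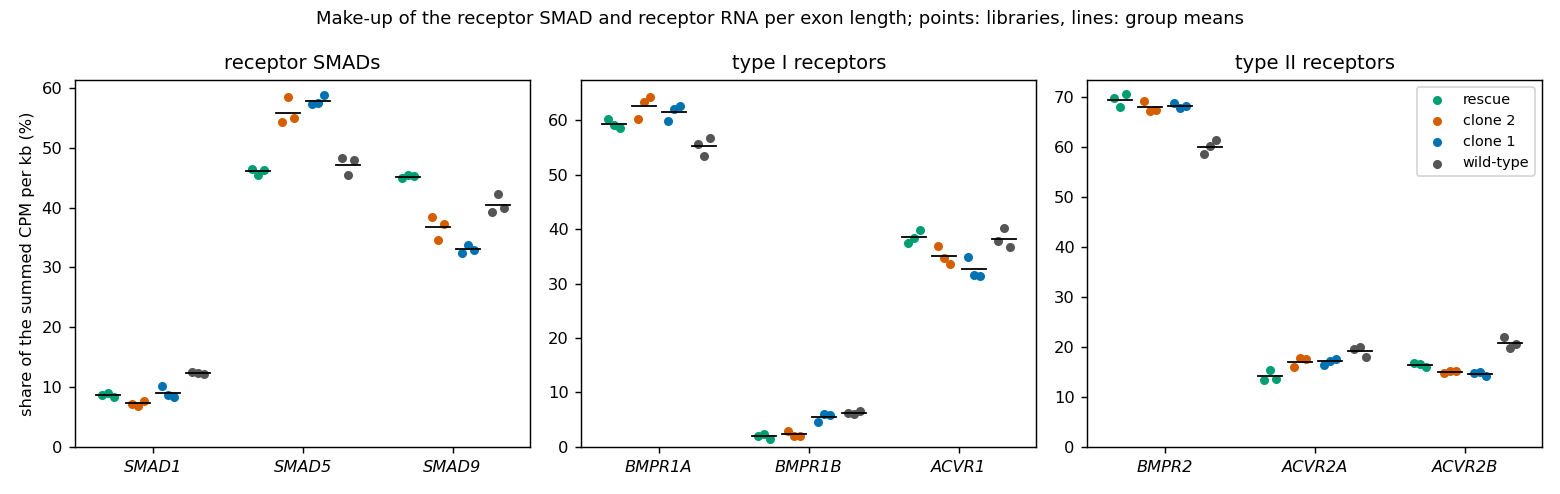
Share of the summed CPM per kilobase of exon (%) taken by each receptor SMAD, each BMP type I receptor except ACVRL1, and each type II receptor; points are libraries and lines are group means. SMAD5 holds 55.9% and 57.9% of receptor SMAD RNA in clone 2 and clone 1, against 47.2% in wild-type, and BMPR1B holds 2.00% and 2.30% of type I receptor RNA in rescue and clone 2, against 6.28% in wild-type.

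SMAD1, a receptor SMAD on chromosome 4 (hg38 chr4:145481194-145558079, plus strand), had 12.6, 12.9 and 11.8 CPM in libraries labelled rescue and 9.53, 8.91 and 9.44 CPM in clone 2. It had 12.8, 12.3 and 11.0 CPM in clone 1 and 17.3, 17.8 and 17.2 CPM in wild-type. Wild-type stood above all other libraries, clone 2 below all others, and the rescue libraries overlapped with clone 1 in between. SMAD1 fell by 0.90 on the log2 scale in clone 2 (SE 0.076, edgeR adjusted p = 2.09e-13) and by 0.53 in clone 1 (SE 0.072, edgeR adjusted p = 3.03e-08), and clone 2 differed from clone 1 by -0.37 (SE 0.081, edgeR adjusted p = 0.000144). In libraries labelled rescue it rose by 0.41 relative to clone 2 (SE 0.080, edgeR adjusted p = 5.11e-05) and was lower than wild-type, at -0.49 (SE 0.071, edgeR adjusted p = 1.47e-07). SMAD1 shares 376 exonic bases with SMAD1-AS1 on the opposite strand.

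SMAD5, the receptor SMAD with the highest mean level per length in all 4 groups, lies on chromosome 5 (hg38 chr5:136132845-136188747, plus strand). It had 100.7, 96.4 and 96.7 CPM in libraries labelled rescue, 106.3, 112.6 and 99.995 CPM in clone 2, 106.9, 121.6 and 116.5 CPM in clone 1, and 99.9, 97.2 and 100.7 CPM in wild-type. Clone 1 did not overlap with wild-type, while clone 2 overlapped with all the other groups. SMAD5 rose by 0.21 in clone 1 (SE 0.042, edgeR adjusted p = 2.57e-05). The other SMAD5 calls lay close to the threshold. In clone 2 against wild-type the change was 0.10 (SE 0.042, edgeR adjusted p = 0.0452), and the call was lost without any 1 of 10 libraries, namely every one but clone 1 replicate 2 and clone 2 replicate 3. Those fits gave changes of 0.04 to 0.09 with adjusted p of 0.0719 to 0.414, the lowest change being without clone 2 replicate 2, and the call was also lost with no filter, with DESeq2 and with limma-voom. In libraries labelled rescue against clone 2 the change was -0.12 (SE 0.042, edgeR adjusted p = 0.0246). It was lost without wild-type replicate 1, clone 1 replicate 3, clone 2 replicate 1 or 2, or rescue replicate 2 or 3, at -0.10 to -0.06. Clone 2 was lower than clone 1 by -0.12 (SE 0.042, edgeR adjusted p = 0.0142), which was lost without clone 1 replicate 2 or clone 2 replicate 3, both at -0.08, and under upper quartile scaling, at -0.06. SMAD5 shares 610 exonic bases with the antisense gene SMAD5-AS1.

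SMAD9, the receptor SMAD also known as SMAD8, lies on chromosome 13 (hg38 chr13:36844831-36920765, minus strand). It had 61.7, 61.0 and 59.8 CPM in libraries labelled rescue, 47.8, 42.3 and 42.9 CPM in clone 2, 38.3, 45.2 and 41.3 CPM in clone 1, and 51.5, 57.2 and 53.2 CPM in wild-type. All 3 rescue libraries stood above wild-type, both clones stood below wild-type, and the clones overlapped with each other. SMAD9 fell by 0.28 on the log2 scale in clone 2 (SE 0.053, edgeR adjusted p = 1.89e-05) and by 0.37 in clone 1 (SE 0.053, edgeR adjusted p = 1.15e-07). In libraries labelled rescue it rose by 0.45 relative to clone 2 (SE 0.052, edgeR adjusted p = 2.47e-09) and by 0.17 relative to wild-type (SE 0.050, edgeR adjusted p = 0.00277). It was the 1 gene of the 8 that was higher in rescue than in wild-type. Clone 2 and clone 1 differed by 0.09 (SE 0.055, edgeR adjusted p = 0.147), or by 0.15 without clone 1 replicate 2 (edgeR adjusted p = 0.0272).

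The make-up of the receptor SMAD RNA differed between groups more than its total. The summed level of SMAD1, SMAD5 and SMAD9 was 23.5 ± 0.461 CPM per kilobase in libraries labelled rescue, 21.0 ± 0.816 in clone 2, 22.0 ± 1.38 in clone 1 and 23.3 ± 0.392 in wild-type (SD, n = 3 each). Within it SMAD1 held 8.71% in libraries labelled rescue, 7.30% in clone 2, 9.08% in clone 1 and 12.3% in wild-type. SMAD9 held 45.2% in rescue, 36.8% in clone 2, 33.0% in clone 1 and 40.5% in wild-type. SMAD5 held the remaining 46.1%, 55.9%, 57.9% and 47.2%. No test was made of these shares.

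SMAD4, the partner that receptor SMADs of the BMP and TGF-beta branches share and a tumour suppressor of the gut and pancreas, lies on chromosome 18 (hg38 chr18:51028394-51085045, plus strand). It had 66.1, 62.0 and 63.9 CPM in libraries labelled rescue, 63.7, 70.7 and 65.6 CPM in clone 2, 54.2, 59.2 and 58.7 CPM in clone 1, and 84.3, 86.2 and 89.5 CPM in wild-type. Clone 1, clone 2 and the rescue line made from clone 2 stood below wild-type in every library. Clone 1 stood below all others, and rescue and clone 2 overlapped. SMAD4 fell by 0.44 on the log2 scale in libraries labelled rescue (SE 0.043, edgeR adjusted p = 1.20e-11), by 0.38 in clone 2 (SE 0.043, edgeR adjusted p = 4.55e-10) and by 0.59 in clone 1 (SE 0.044, edgeR adjusted p = 3.51e-15). Clone 2 was higher than clone 1 by 0.21 (SE 0.045, edgeR adjusted p = 9.99e-05). The rescue change against clone 2 was -0.06 (SE 0.044, edgeR adjusted p = 0.342). SMAD4 shares 967 exonic bases with the coding gene AC091551.1 on the same strand, which has no row of its own in the table.

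SMAD6, an inhibitory SMAD that binds type I receptors and SMAD1 and is itself a BMP target, lies on chromosome 15 (hg38 chr15:66702228-66782848, plus strand). It had 14.2, 15.3 and 14.4 CPM in libraries labelled rescue, 10.9, 10.8 and 12.5 CPM in clone 2, 10.3, 13.0 and 12.5 CPM in clone 1, and 15.7, 16.3 and 16.4 CPM in wild-type. Both clones stood below every rescue and wild-type library and overlapped with each other, and the rescue libraries stood below every wild-type library. SMAD6 fell by 0.50 on the log2 scale in clone 2 (SE 0.080, edgeR adjusted p = 7.31e-07) and by 0.42 in clone 1 (SE 0.078, edgeR adjusted p = 1.13e-05). It rose by 0.36 in libraries labelled rescue relative to clone 2 (SE 0.080, edgeR adjusted p = 0.000356), and the change left against wild-type was -0.14 (SE 0.075, edgeR adjusted p = 0.0970). Per length SMAD6 stood at 7.28% ± 0.345 of the receptor SMAD sum in libraries labelled rescue, 6.37% ± 0.793 in clone 2, 6.34% ± 0.445 in clone 1 and 8.11% ± 0.115 in wild-type.

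**Figure D3:**
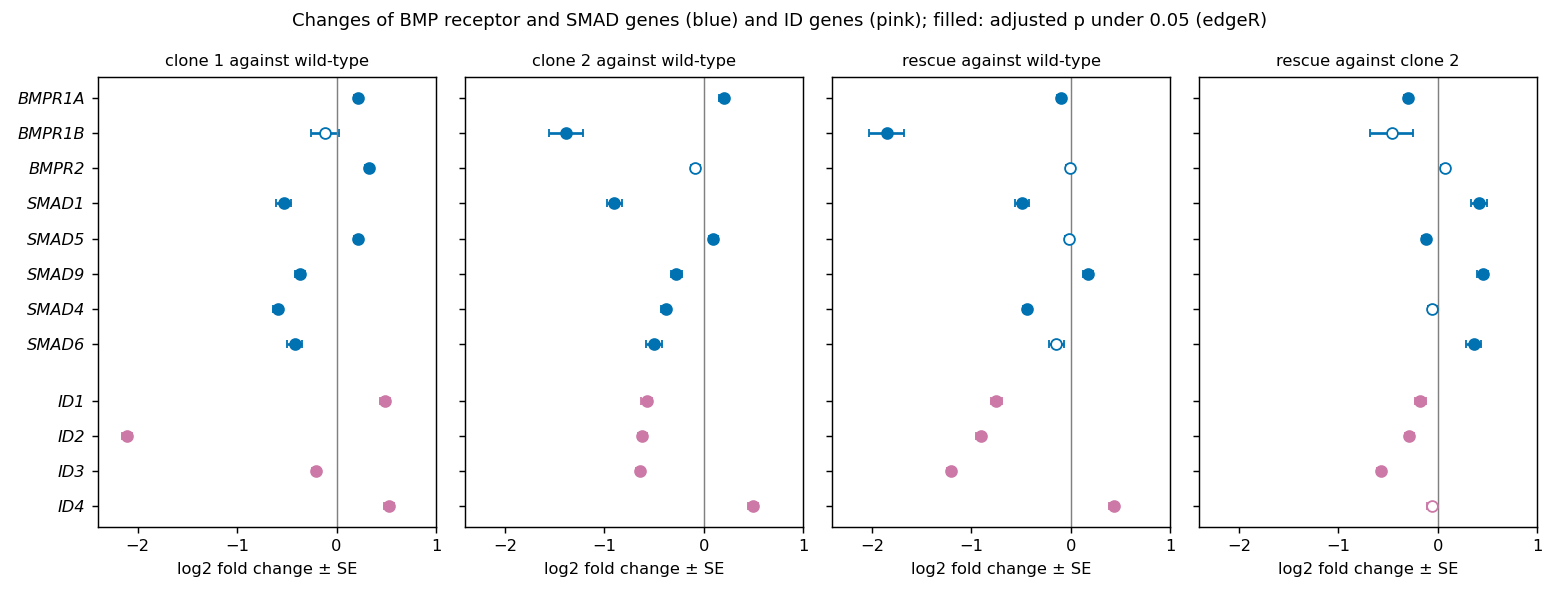
Log2 fold change ± SE of the 8 BMP receptor and SMAD genes (blue) and the 4 ID genes (pink) in 4 comparisons, with filled points where the edgeR adjusted p was under 0.05. SMAD1, SMAD9 and SMAD6 lie left of 0 in both clones against wild-type and right of 0 in rescue against clone 2, and ID2 lies left of 0 in every panel.

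SMAD1, SMAD6 and SMAD9 fell in both clones and rose in libraries labelled rescue relative to clone 2, while SMAD5 did not fall in either clone. SMAD1 has 5 RefSeq start sites, so its windows are not printed and their matches are given below. For the others the 250 bases before the RefSeq start site (GRCh38.p14) are shown with those of ID1, so that the letters at which SMADs and E proteins can bind may be compared. Capitals mark matches on either strand to GTCTAGAC, the SMAD palindrome, GGCGCC, a GC-rich SMAD element, or CAGCTG and CAGGTG, which are E-boxes. The motifs do not overlap with one another in these windows. SMAD6 spans chr15:66701986-66702235 on the plus strand, SMAD9 chr13:36920239-36920488 on the minus strand, SMAD5 chr5:136132595-136132844 on the plus strand and ID1 chr20:31605039-31605288 on the plus strand.
SMAD6: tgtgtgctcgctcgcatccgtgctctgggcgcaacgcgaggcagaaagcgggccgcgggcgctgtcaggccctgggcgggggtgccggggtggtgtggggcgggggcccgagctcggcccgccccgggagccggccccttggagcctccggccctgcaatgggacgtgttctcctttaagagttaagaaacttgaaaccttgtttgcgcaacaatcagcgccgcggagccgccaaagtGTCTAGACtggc
SMAD9: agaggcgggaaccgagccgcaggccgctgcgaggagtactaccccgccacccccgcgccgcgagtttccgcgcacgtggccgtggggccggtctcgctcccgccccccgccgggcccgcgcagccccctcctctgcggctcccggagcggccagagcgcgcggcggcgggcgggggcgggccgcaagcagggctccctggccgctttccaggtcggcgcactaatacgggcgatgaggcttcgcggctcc
SMAD5: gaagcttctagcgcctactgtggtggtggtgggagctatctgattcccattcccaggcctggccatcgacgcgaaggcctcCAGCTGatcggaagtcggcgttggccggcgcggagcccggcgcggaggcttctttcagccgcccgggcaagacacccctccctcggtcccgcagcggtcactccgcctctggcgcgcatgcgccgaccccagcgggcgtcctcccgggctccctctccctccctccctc
ID1: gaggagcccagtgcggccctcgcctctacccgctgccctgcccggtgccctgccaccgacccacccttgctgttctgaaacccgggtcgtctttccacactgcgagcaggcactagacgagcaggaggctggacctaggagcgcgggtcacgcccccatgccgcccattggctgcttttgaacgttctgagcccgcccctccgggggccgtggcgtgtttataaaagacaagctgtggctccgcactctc

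The SMAD6 window held GTCTAGAC 12 bases before its start site, a motif that 0.182% of all 35116 windows of this length held. It was the 1 window with that match among 18 start sites of the 8 genes and the 4 ID genes. The SMAD5 window held CAGCTG 169 bases before the start, as did 14.0% of all windows. The SMAD9 and ID1 windows held none of the 4 motifs. GGCGCC, present in 16.4% of all windows, was found for BMPR2, SMAD1 and SMAD4. CAGCTG was also found for BMPR1B, BMPR2, SMAD1, ID2 and ID4. CAGGTG, present in 17.5% of all windows, was found in 0 of the 18. A match describes these letters and not a bound site, and a window without a match says nothing of the factor.

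The 4 ID genes moved in both directions against wild-type. All 4 were called in clone 2 against wild-type, 1 higher and 3 lower, and all 4 in clone 1 against wild-type, 2 higher and 2 lower, beside the 62.1% and 61.5% of all genes given above. Of the 4 ID genes, 0 rose and 3 fell in libraries labelled rescue against clone 2, beside 39.2% of all genes, and the changes were -0.17 for ID1, -0.29 for ID2, -0.57 for ID3 and -0.06 for ID4. Relative to wild-type 1 rose and 3 fell in those libraries, beside 58.4% of all genes. Their summed level per length was 107.4 ± 2.38 CPM per kilobase in libraries labelled rescue, 137.2 ± 2.54 in clone 2, 172.3 ± 5.19 in clone 1 and 192.3 ± 6.53 in wild-type (SD, n = 3 each). The 4 groups did not stand in the same order as for any of SMAD1, SMAD9 or SMAD6, which were higher in libraries labelled rescue than in clone 2.

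ID1, a BMP target in many cell types, had 27.2, 24.4 and 25.7 CPM in libraries labelled rescue, 31.4, 27.6 and 27.8 CPM in clone 2, 62.3, 57.0 and 62.6 CPM in clone 1, and 42.9, 43.6 and 43.4 CPM in wild-type. Clone 1 lay above wild-type, and rescue and clone 2 lay below it. ID1 changed by -0.57 in clone 2 (SE 0.055, edgeR adjusted p = 5.49e-12) and by 0.48 in clone 1 (SE 0.050, edgeR adjusted p = 3.67e-11), and the clones differed by -1.06 (SE 0.053, edgeR adjusted p = 1.10e-20). The rescue change against clone 2, -0.17 (SE 0.058, edgeR adjusted p = 0.0150), was lost without clone 2 replicate 1, at -0.09, and without rescue replicate 2 or 3.

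ID3, the most abundant ID gene per length in all 4 groups, had 84.0, 80.2 and 81.7 CPM in libraries labelled rescue, 124.8, 117.0 and 122.9 CPM in clone 2, 171.5, 158.1 and 162.9 CPM in clone 1, and 182.2, 202.0 and 184.8 CPM in wild-type. No groups overlapped. The change against wild-type was -1.21 in libraries labelled rescue (SE 0.040, edgeR adjusted p = 2.22e-26), -0.64 in clone 2 (SE 0.039, edgeR adjusted p = 8.87e-18) and -0.21 in clone 1 (SE 0.038, edgeR adjusted p = 7.47e-06). ID4, which is less firmly tied to BMP signalling, had 52.2, 53.1 and 49.5 CPM in libraries labelled rescue, 53.7, 56.1 and 52.3 CPM in clone 2, 51.9, 56.9 and 56.6 CPM in clone 1, and 37.1, 38.1 and 39.6 CPM in wild-type. Its libraries overlapped between rescue and both clones, and each of these lines stood above wild-type. ID4 rose by 0.43 in libraries labelled rescue (SE 0.048, edgeR adjusted p = 3.18e-10), by 0.49 in clone 2 (SE 0.048, edgeR adjusted p = 1.03e-11) and by 0.53 in clone 1 (SE 0.048, edgeR adjusted p = 1.25e-12).

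Several of the 8 genes lie on chromosomes whose other genes also moved, as measured over genes of at least 1 CPM. On chromosome 18 the median log2 fold change of the other genes was -0.29 in libraries labelled rescue, -0.36 in clone 2 and -0.35 in clone 1, against wild-type, beside the -0.44, -0.38 and -0.59 of SMAD4. Within 10 Mb of SMAD4, a window chosen after the values were seen, 46 of 50 genes were below 0 in libraries labelled rescue, 40 in clone 2 and 43 in clone 1. On chromosome 13 the median was 0.05 in libraries labelled rescue, 0.11 in clone 2 and -0.29 in clone 1. SMAD9 at -0.37 was thus near the other genes of its chromosome in clone 1, while at -0.28 in clone 2 6 of its 79 neighbours within 10 Mb were lower, and their median was 0.12. In libraries labelled rescue against clone 2, SMAD9 lay above 78 of those 79 neighbours.

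Both genes on chromosome 4 had neighbours that were lower in rescue and clone 2. Over the other genes of the whole chromosome the median was -0.20 in libraries labelled rescue, -0.20 in clone 2 and -0.06 in clone 1. Within 10 Mb of SMAD1 the median of 54 genes was -0.50 in libraries labelled rescue, -0.52 in clone 2 and -0.10 in clone 1. SMAD1 itself, at -0.49, stood near that median in the rescue libraries, while 1 of the 54 neighbours was lower than SMAD1 in clone 2 and 7 were lower in clone 1. Within 10 Mb of BMPR1B the median of 47 genes was -0.44 in libraries labelled rescue, -0.48 in clone 2 and -0.07 in clone 1, and 1 of the 47 was lower than BMPR1B in rescue and 1 in clone 2. Near SMAD5 the median of 133 genes was 0.18 in libraries labelled rescue, 0.20 in clone 2 and 0.30 in clone 1, beside SMAD5 at -0.02, 0.10 and 0.21. Over the whole of chromosome 5 the median was 0.06, 0.02 and -0.10, so in clone 1 its sign was opposite to that near SMAD5. Near SMAD6 the median of 132 genes was -0.20 in libraries labelled rescue, -0.29 in clone 2 and -0.04 in clone 1, beside SMAD6 at -0.14, -0.50 and -0.42. Over the whole of chromosome 15 the median was -0.05, -0.12 and -0.03. In rescue, clone 2 and clone 1, the median of 78 genes near BMPR1A was 0.08, 0.10 and 0.00, beside BMPR1A at -0.10, 0.20 and 0.22. Near BMPR2 the median of 71 genes was 0.02, 0.02 and -0.20, beside BMPR2 at -0.01, -0.08 and 0.32. In the same order, genes within 10 Mb of ID1 had medians of 0.08, 0.05 and 0.14, beside ID1 at -0.75, -0.57 and 0.48. For ID2 the medians were 0.24, 0.12 and -0.25, beside -0.91, -0.62 and -2.11. For ID3 they were 0.01, 0.04 and 0.08, beside -1.21, -0.64 and -0.21. For ID4 they were -0.23, -0.24 and -0.23, beside 0.43, 0.49 and 0.53. The number of copies of these regions was not measured, and its part in the changes was not tested.

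**Figure D4:**
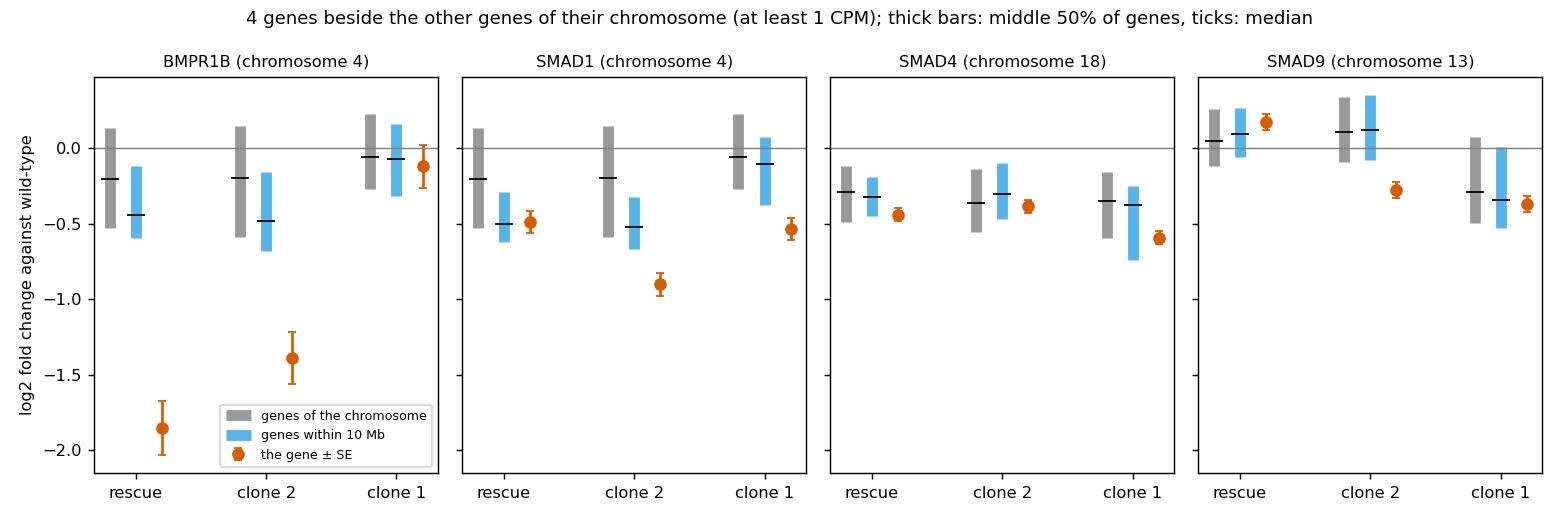
Log2 fold change against wild-type of BMPR1B, SMAD1, SMAD4 and SMAD9 (orange, ± SE) in rescue, clone 2 and clone 1, beside the other genes of the same chromosome (grey) and those within 10 Mb (blue) with a mean of at least 1 CPM; bars span the middle 50% of genes and ticks are medians. SMAD4 and the medians of chromosome 18 lie below 0 in all 3 lines, and BMPR1B lies well under its neighbours in rescue and clone 2.

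For the 3 of the 8 genes with the widest range of group means, the genes of most similar pattern were sought among 10906 genes, by Pearson correlation of log2 CPM over the 12 libraries. For BMPR1B they were ATP8A1 (r = 0.986), OPLAH (r = 0.979) and DNAJB14 (r = 0.975), and ATP8A1 and DNAJB14 lie on chromosome 4 as BMPR1B does. ATP8A1 averaged 3.62 CPM in libraries labelled rescue, 4.74 in clone 2, 10.3 in clone 1 and 9.82 in wild-type. For SMAD1 they were MCM2 (r = 0.991), GNL3 (r = 0.990) and CCNA2 (r = 0.989). CCNA2 averaged 116.8 CPM in libraries labelled rescue, 78.0 in clone 2, 117.0 in clone 1 and 174.6 in wild-type. For SMAD4 they were CCNJ (r = 0.986), TMEM65 (r = 0.970) and CHD8 (r = 0.970). The 12 libraries fall into 4 groups, so these correlations mostly compare 4 group means and are a description.

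Among ligands other than BMP4 and BMP7, 5 of 12 listed genes were tested, and 2 rose and 2 fell in clone 2 while 3 rose and 1 fell in clone 1, against wild-type, beside 62.1% and 61.5% of all genes called. The median change of the 5 was 0.04 in clone 2 and 0.57 in clone 1. BMP2, a ligand that binds BMPR1A and BMPR1B, averaged 7.58 CPM in libraries labelled rescue, 9.54 in clone 2, 1.78 in clone 1 and 7.92 in wild-type. It fell by 2.13 on the log2 scale in clone 1 (SE 0.141, edgeR adjusted p = 1.23e-16), and clone 2 was higher than clone 1 by 2.40 (SE 0.137). BMP5, a ligand of the BMP7 subfamily, averaged 0.605 CPM in libraries labelled rescue, 0.322 in clone 2, 4.27 in clone 1 and 2.06 in wild-type. It moved the other way, by -2.64 in clone 2 (SE 0.267, edgeR adjusted p = 2.92e-11) and by 1.06 in clone 1 (SE 0.155, edgeR adjusted p = 1.38e-07). The clone 2 value of BMP5 rests on few counts, 23 over the 3 libraries. BMP8B, at 0.63 in clone 2 and 0.57 in clone 1, has the near-identical copy BMP8A, and its values are uncertain.

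Of the 6 co-receptors listed, 5 were tested, with 2 higher and 0 lower in clone 2 and 2 higher and 3 lower in clone 1, beside 62.1% and 61.5% of all genes called. Their median change was 0.63 in clone 2 and -0.18 in clone 1. ENG, or endoglin, a co-receptor of endothelium and mesenchymal cells that binds BMP9 and BMP10, averaged 33.9 CPM in libraries labelled rescue, 28.2 in clone 2, 104.7 in clone 1 and 15.0 in wild-type. It rose by 1.18 in libraries labelled rescue (SE 0.059, edgeR adjusted p = 2.38e-20), by 0.92 in clone 2 (SE 0.062, edgeR adjusted p = 2.04e-16) and by 2.81 in clone 1 (SE 0.053, edgeR adjusted p = 4.50e-35). NEO1, or neogenin, which binds the RGM co-receptors, averaged 119.5 CPM in libraries labelled rescue, 100.7 in clone 2, 25.7 in clone 1 and 64.6 in wild-type. Clone 2 was higher than clone 1 by 1.97 (SE 0.049, edgeR adjusted p = 5.29e-31). HJV, or hemojuvelin, an RGM co-receptor of iron control, averaged 0.317 CPM in libraries labelled rescue and 1.05 CPM in clone 2, a change of -1.74 (SE 0.355, edgeR adjusted p = 0.000111). That change rests on few counts, with 25 over the 3 rescue libraries.

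Secreted antagonists keep BMPs from their receptors, and of 15 listed 9 were tested. In clone 2 against wild-type, 6 rose and 1 fell, in clone 1, 3 rose and 4 fell, and in libraries labelled rescue against clone 2, 1 rose and 5 fell. The shares of all genes called in these comparisons were 62.1%, 61.5% and 39.2%. The medians of these comparisons were 0.50, -0.36 and -0.22. BMPER, which binds BMPs outside the cell and can inhibit or aid them, averaged 5.85 CPM in libraries labelled rescue, 8.18 in clone 2, 1.98 in clone 1 and 2.73 in wild-type. It rose by 1.59 in clone 2 (SE 0.120, edgeR adjusted p = 7.15e-15). CHRD, or chordin, averaged 0.113 CPM in libraries labelled rescue and 0.745 CPM in clone 2, a change of -2.66 (SE 0.468, edgeR adjusted p = 1.30e-05) on few counts. SOSTDC1, NBL1 and FSTL3 changed by -1.70 (SE 0.26), 1.59 (SE 0.15) and 1.11 (SE 0.12) in clone 1. The SOSTDC1 change also rests on few counts, with 39 over the 3 clone 1 libraries and means of 0.563 CPM in clone 1 and 1.74 CPM in wild-type. PCSK6, a protease that cuts TGF-beta family precursors to their active form, averaged 6.19 CPM in libraries labelled rescue, 8.89 in clone 2, 1.12 in clone 1 and 11.0 in wild-type, and fell by 3.32 on the log2 scale in clone 1 (SE 0.146, edgeR adjusted p = 1.80e-22). The 5 proteases tested, of 6 listed, counted 2 higher and 2 lower in clone 2, and 1 higher and 3 lower in clone 1, with medians of 0.22 and -0.21, beside 62.1% and 61.5% of all genes called. TLL1, a protease that cuts chordin, rose by 0.54 in clone 2 (SE 0.084, edgeR adjusted p = 5.67e-07). Its relative TLL2 had 0.870 CPM in libraries labelled rescue and 0.481 CPM in wild-type, a change of 0.87 (SE 0.315, edgeR adjusted p = 0.0167). The TLL2 change rests on few counts, with 35 over the 3 wild-type libraries.

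Of the 12 inhibitors at the membrane and inside the cell other than SMAD6, 4 rose and 7 fell in clone 2, and 4 rose and 3 fell in clone 1, with medians of -0.24 in clone 2 and 0.05 in clone 1. Over all genes 31.5% rose and 30.6% fell in clone 2, and 30.8% and 30.7% in clone 1. BAMBI, a receptor without kinase activity that blocks signalling, averaged 30.1 CPM in libraries labelled rescue, 21.9 in clone 2, 22.0 in clone 1 and 14.2 in wild-type. It rose by 1.08 in libraries labelled rescue (SE 0.061, edgeR adjusted p = 1.30e-18) and by 0.63 in both clone 2 (SE 0.065) and clone 1 (SE 0.065). SKIL, a SMAD co-repressor, fell by 0.82 on the log2 scale in clone 2 (SE 0.056, edgeR adjusted p = 3.21e-16). SMAD7, the other inhibitory SMAD, averaged 15.0 CPM in libraries labelled rescue, 11.5 in clone 2, 21.9 in clone 1 and 17.3 in wild-type, and clone 2 was lower than clone 1 by -0.92 (SE 0.079, edgeR adjusted p = 2.32e-13). SMAD7 rose in clone 1, by 0.34, where SMAD6 fell.

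In the TGF-beta and activin branch, which shares SMAD4 with the BMP branch, all 5 genes tested of 6 listed fell in clone 2, while 3 rose and 2 fell in clone 1, with medians of -0.38 in clone 2 and 0.14 in clone 1. The shares of all genes that fell were 30.6% in clone 2 and 30.7% in clone 1, and 30.8% of all genes rose in clone 1. SMAD2, a receptor SMAD of that branch, averaged 71.5 CPM in libraries labelled rescue, 71.6 in clone 2, 74.9 in clone 1 and 98.1 in wild-type. It fell by 0.46 on the log2 scale in libraries labelled rescue (SE 0.038, edgeR adjusted p = 1.40e-13). SMAD3 averaged 36.0 CPM in libraries labelled rescue, 30.1 in clone 2, 53.6 in clone 1 and 33.7 in wild-type, and clone 2 was lower than clone 1 by -0.84 (SE 0.049, edgeR adjusted p = 1.69e-18). TGFBR2 rose by 0.54 in libraries labelled rescue relative to clone 2 (SE 0.074, edgeR adjusted p = 1.50e-07), and TGFBR1 fell by 0.73 on the log2 scale in clone 1 (SE 0.062, edgeR adjusted p = 2.62e-13).

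Other known BMP targets, 14 tested of 16 listed, moved in both directions. SMAD7, BAMBI and NOG among them also stand in the lists of inhibitors or antagonists. Against wild-type, 5 rose and 5 fell in libraries labelled rescue, 7 rose and 6 fell in clone 2, and 9 rose and 3 fell in clone 1, beside 58.4%, 62.1% and 61.5% of all genes called. The list's median was 0.05 in libraries labelled rescue, 0.36 in clone 2 and 0.49 in clone 1, beside 0.00, 0.01 and 0.01 over all genes. ATOH8, a helix-loop-helix factor induced by BMPs in endothelium and liver, averaged 2.81 CPM in libraries labelled rescue, 3.79 in clone 2, 10.7 in clone 1 and 16.9 in wild-type. Its change was -2.58 in libraries labelled rescue (SE 0.102, edgeR adjusted p = 1.44e-23) and -2.13 in clone 2 (SE 0.099, edgeR adjusted p = 1.90e-21).

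HEY1, a transcriptional repressor under Notch and BMP control, averaged 13.9 CPM in libraries labelled rescue, 10.8 in clone 2, 39.7 in clone 1 and 12.5 in wild-type, and rose by 1.67 in clone 1 (SE 0.072, edgeR adjusted p = 7.76e-23). GATA3, a zinc finger factor, rose by 2.17 in clone 1 (SE 0.122, edgeR adjusted p = 6.13e-19). DLX3 and DLX2, homeobox transcription factors, rose in clone 1 by 1.18 and 1.12, and in libraries labelled rescue DLX3 changed by -2.16 and DLX2 by 1.30 against wild-type. MSX1 changed by -1.20 in libraries labelled rescue relative to clone 2 (SE 0.058, edgeR adjusted p = 2.68e-20), while its relative MSX2 was higher in those libraries than in wild-type by 1.15 (SE 0.092, edgeR adjusted p = 5.23e-14). RUNX2, the bone factor, averaged 5.45 CPM in libraries labelled rescue, 4.21 in clone 2, 12.4 in clone 1 and 5.74 in wild-type. Against wild-type it changed by 1.11 in clone 1 (SE 0.101) and by -0.44 in clone 2 (SE 0.124). Clone 2 was lower than clone 1 by -1.55 (SE 0.108, edgeR adjusted p = 5.61e-16). HEY1, GATA3, DLX3, DLX2, RUNX2 and MSX1, the last by 1.09, rose in clone 1, where 3 of the 14 targets fell. These rises stood beside raised markers of other cells. These were the keratins, EPCAM at 18.7 CPM in clone 1 and 0.836 CPM in wild-type, PDGFRB at 159.9 and 96.4, and DCN at 15.4 and 11.4. PTPRC and CDH5 stayed under 1 CPM in every group mean. A link between the targets and these markers was not tested.

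**Figure D5:**
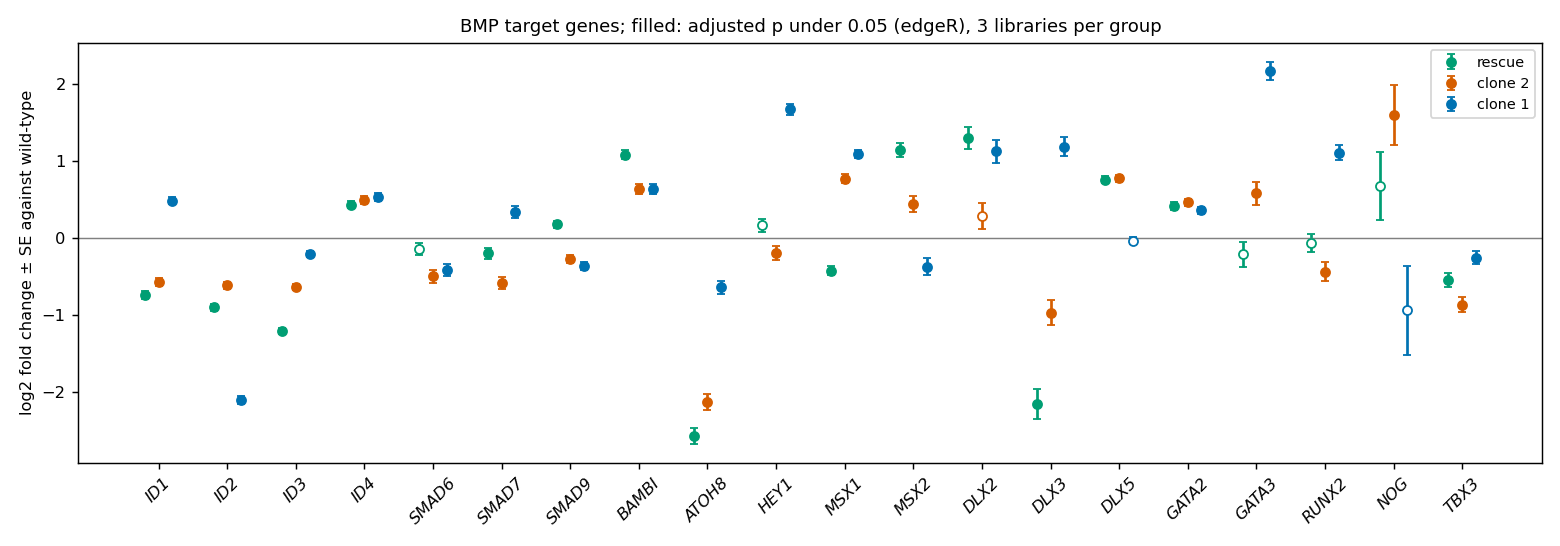
Log2 fold change ± SE against wild-type of the ID genes and other known BMP targets in rescue, clone 2 and clone 1, 3 libraries each, with filled points where the edgeR adjusted p was under 0.05. ATOH8 is lowest in rescue and clone 2, and GATA3 and HEY1 are highest in clone 1.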

How the data were processed

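RNA of 12 TC71 libraries was read from 1 table of raw counts per gene, deposited by the authors with Ensembl identifiers. The submitters' processing notes name FastQC, STAR and the build hg38, without versions. The RNA was polyadenylated and the library kit stranded, per the labels' protocols. The read counter, its strand setting, the annotation and the row filter were not given in the sources used here. Reads in the exonic bases that SMAD1, SMAD5, SMAD4 and ID2 share with other genes therefore cannot be assigned with certainty. ID2 shares 38 exonic bases with the antisense gene ID2-AS1, which has its own row, at a mean of 3.56 CPM. Libraries were grouped by title.

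Genes with enough counts in a group (filterByExpr, minimum count 10) were tested with edgeR 4.0.16 (R 4.3.3), with TMM scaling and its quasi-likelihood test in 1 fit of all 4 groups, with 8 residual degrees of freedom. This kept 17084 genes and at least 99.93% of the counts in each library. The common biological coefficient of variation was 2.95%. P-values were Benjamini-Hochberg adjusted over all genes tested. The SE is the absolute log2 fold change divided by the square root of F. The fit was also run on simulated counts in which few genes changed, and in clone 1 only. That setting differs from these data, so the run cannot show how the fit performs here. Symbols were matched by identifier, hg38 coordinates and exon lengths from GENCODE release 29, and the bases before start sites from RefSeq GRCh38.p14. GENCODE transcripts of some genes start elsewhere. Depth was 19420408 to 29748084 counts per library.

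The genes and lists were chosen with earlier results of these data known. All 8 genes with a row and the ID genes are named. Of each other list, genes were eligible to be named by a rule of up to 4 per comparison that passed the test with a log2 change of at least 1 and a mean of at least 1 CPM, or else the called gene with the largest change. LIPI, which the rule also picks, is given only within the sum and counts of Ewing sarcoma markers. CD99, CCND1, ACVR1, ACVRL1, BMP8B, PTPRC and CDH5 and the further comparisons given for named genes fall outside that rule and were chosen after their values were seen. Alternatives were DESeq2 size factors, upper quartile scaling, DESeq2 1.42.0, no filter, genes of 1 CPM or more in 3 libraries, limma-voom (limma 3.58.1), a replicate block, only the groups compared, and leaving out each library in turn.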

Additional observations from a re-analysis of the deposited data

Results flagged for a closer look

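For 5 of the BMP receptor and SMAD genes and 3 of the ID genes, the change in clone 2 differed from that in clone 1 by the test of clone 2 against clone 1 (edgeR adjusted p under 0.05). The difference, as a log2 fold change, was -1.27 for BMPR1B, -0.41 for BMPR2, -0.37 for SMAD1, -0.12 for SMAD5 and 0.21 for SMAD4. For the ID genes it was -1.06 for ID1, 1.49 for ID2 and -0.43 for ID3. ID2 RNA averaged 50.9 CPM in clone 2 and 18.1 CPM in clone 1, so the targeted gene is itself among those that differed. The SMAD5 difference was lost without clone 1 replicate 2 or clone 2 replicate 3, both at -0.08. With 62.2% of all genes called in this comparison, a difference between the clones was common, and a cause was not tested.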

How the results depend on the processing

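Of 1200 recomputed values under 20 alternatives, 1144 kept their direction and their side of the threshold, 36 lost the call, 12 gained it and 8 changed sign, and no count of genes or of the 8 BMP pathway genes moved by over 1.5 times. In clone 2 against wild-type, the split of the BMP pathway genes was 2 higher and 5 lower in the main fit. It became 1 and 6 with no filter, and 1 and 5 with DESeq2 and with limma-voom. It also changed in some fits with 1 library left out. The 8 values that changed sign were never called. BMPR2 in rescue against wild-type became 0.036 under upper quartile scaling, 0.0053 with only the groups compared, 0.013 without wild-type replicate 3 and 0.039 without rescue replicate 2, with a range of -0.034 to 0.039 over the libraries left out. SMAD5 in that comparison became 0.023 under upper quartile scaling. BMPR1A in clone 2 against clone 1 became 0.045 under upper quartile scaling and 0.019 without clone 2 replicate 1, with a range of -0.056 to 0.019, and ID4 became 0.027 under upper quartile scaling. The cause was not tested. Calls lost or gained belonged to BMPR1A, BMPR2, SMAD5, SMAD9 and ID1. BMPR1B, at 24 to 130 counts per library, was the scarcest of the 8. Upper quartile scaling gave 6413 genes higher and 4257 lower in clone 2 against wild-type, against 5380 and 5230 with TMM, and 2776 higher and 3871 lower in rescue against clone 2, against 3304 and 3397.

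The labels do not say what the replicate numbers mark, and the main fit had no pairing. Deviations of same-numbered libraries correlated at -0.038 to 0.048 over all genes tested. Over the 13844 genes of at least 1 CPM these deviations correlated at -0.080 to 0.113, and no pair of groups had all 3 correlations over 0.1. Such weak correlations cannot show whether same-numbered libraries shared a batch, since count noise also enters the deviations. With the replicate block 10577 genes were called in clone 1 and 10668 in clone 2 against wild-type, 10004 in rescue against wild-type, 6783 in rescue against clone 2 and 10689 in clone 2 against clone 1. Without the block these counts were 10513, 10610, 9982, 6701 and 10628. The block changed no call of the 8 BMP pathway genes or the ID genes.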
